A study of Mus musculus with 10 samples.

Results

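The cytosolic ribosomal protein genes encode the protein part of the ribosome that translates nuclear mRNA. They were taken as all gene names on the array that begin with Rpl, Rps or Rplp and a number, without the Rps6 kinases and without names carrying a pseudogene suffix. The rule found 84 genes (145 probes) among 27218 gene names on the array, and each gene was represented by its brightest probe. All 84 symbols stood in the RefSeq gene table, and each of the 79 accessions that matched there belonged to the gene named. The rule covers 43 large subunit proteins, 30 small subunit proteins, the 3 proteins of the acidic P stalk, 7 paralogs (Rpl22l1, Rpl36al, Rpl39l, Rpl3l, Rpl7l1, Rps27l and Rps4l) and Rps19bp1. Rps19bp1 encodes a protein that binds Rps19 and is not itself a ribosomal protein, and Rps4l is listed by RefSeq as a transcribed pseudogene.

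Each ribosomal protein gene is normally expressed at a high level, and the proteins are needed in near equal amounts, since unassembled ones are degraded. Most of their mRNAs begin with a run of pyrimidines at the cap, the 5′ terminal oligopyrimidine (TOP) motif, through which mTOR and the RNA-binding protein Larp1 adjust their translation and stability. MYC and nutrient signals raise ribosome production in growing lymphoid precursors, and an imbalance of ribosomal proteins frees Rpl5 and Rpl11 to bind Mdm2 and stabilise p53.

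Total RNA from 5 groups was measured on one-colour Agilent arrays, with 2 arrays per group and 10 in all. In 3 groups the RNA came from lymph nodes of a single dHet mouse (686, 713 or 760) with B cell acute lymphoblastic leukemia (B-ALL). The dHet genotype is Ebf1+/- Pax5+/-, with 1 copy missing of each of 2 transcription factor genes of the B lineage. For dHet pro-B cells, c-Kit+ cells were taken from fetal liver (Ebf1+/- Pax5+/- Rag2-/-) and grown with stem cell factor, IL-7 and Flt3 ligand on a layer of OP9 stroma. Bone marrow of Ebf1+/+ Pax5+/+ control mice gave the sorted wt pro-B cells (Fraction BC). The leukemias therefore differ from dHet pro-B cells also in Rag2, tissue, age of the source and culture. From wt pro-B cells they differ in tissue as well as Ebf1 and Pax5. The dHet differ from wt pro-B cells in tissue, age of the source, culture and Rag2 as well as Ebf1 and Pax5. Within each comparison these cannot be told apart. The 2 arrays of a leukemia share a mouse, so p-values between single leukemias do not measure the spread between mice. For the pro-B groups the labels do not say whether the 2 arrays are separate cultures or animals. The p-values may therefore measure technical spread.

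A level below is the log2 signal of a probe minus the 75th percentile of its array, so 0 is that percentile. Levels of different probes are not compared. Of the 84 genes, 83 were tested, within 14438 genes tested in all. Rpl39l, a testis-enriched paralog of Rpl39, was left out because it was well above background on only 1 of 10 arrays. A further 81 members were well above background on all 10 arrays, Rpl3l on 8 and Rps4l on 6. A member passed the test where the limma p-value, adjusted by the Benjamini-Hochberg method over all genes tested, was under 0.05.

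The leukemia arrays lay on 2 slides, with replicate 1 of all 3 mice on slide 1 and replicate 2 on slide 2, and the 4 pro-B arrays lay on slide 3. Slides 2 and 3 were scanned on the same day. No slide held both leukemia and pro-B arrays, so slide and kind of sample cannot be told apart in either leukemia comparison. The share of probes well above background was 35.7% on replicate 1 of leukemia 686 and between 42.1% and 52.4% on the others. Of 9 B lineage markers, 8 or 9 were well above background on each leukemia array and all 9 on each pro-B array. Their summed signal, in multiples of the 75th percentile, was 1015 to 1310 in the leukemias, 2150 and 2458 in dHet and 1279 and 1322 in wt pro-B cells. The sum of 7 T cell markers was 11.4 to 65.0 in the leukemias, 9.97 and 13.1 in dHet and 2.99 and 3.27 in wt pro-B cells. The sum of 7 myeloid markers was 12.2 to 129 in the leukemias, 18.5 and 20.9 in dHet and 73.7 and 147 in wt. The sum of 6 stromal markers was 0.270 to 0.978 in the leukemias, 0.222 and 0.244 in dHet and 1.38 and 2.46 in wt, and that of 4 erythroid markers was 1.11 to 87.6, 0.154 and 0.235, and 1.33 and 1.83. The part of such cells in the ribosomal protein values was not tested, and in bulk RNA fewer cells of a type and less RNA per cell cannot be told apart.

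Promoter sequences were available from RefSeq (GRCm38.p6) for 63 of the 84 members, each running from 250 bases before to 50 after the start. A run of 8 or more pyrimidines (C or T) on the gene strand within 20 bases of either side of the start was present in 28 of the 63 (44.4%) and in 15.9% of all 27025 promoters. The narrower word CTTTCC stood in the same window in 10 of 63 members and in 1.90% of all promoters. CTCTTTC, which overlaps it where a C follows, stood in 6 of 63 members against 0.537% of all promoters. CCGGAA, the core bound by ETS factors, searched on both strands over all 300 bases, was present in 31 of 63 members (49.2%) against 15.2% of all promoters. The E-box CACGTG, bound by MYC and related factors and identical on both strands, was present in 5 of 63 (7.94%), close to the 7.24% of all promoters. Of the 35 members with a promoter that rose in the leukemias against wt, 18 held the pyrimidine run, and so did 10 of the other 28. The following windows, from 60 bases before to 20 bases from the start onward, show the run in capitals for members that the values below turn on.

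Rps6 (chr4:86857348-86857427, minus strand): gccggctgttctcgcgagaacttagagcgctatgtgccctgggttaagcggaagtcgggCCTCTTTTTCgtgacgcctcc
Rps27 (chr3:90213629-90213708, minus strand): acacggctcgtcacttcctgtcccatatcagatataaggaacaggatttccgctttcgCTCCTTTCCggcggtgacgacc
Rps10 (chr17:27635225-27635304, minus strand): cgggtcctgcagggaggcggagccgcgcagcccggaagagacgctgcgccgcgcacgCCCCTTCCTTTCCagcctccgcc
Rpl22l1 (chr3:28805448-28805527, plus strand): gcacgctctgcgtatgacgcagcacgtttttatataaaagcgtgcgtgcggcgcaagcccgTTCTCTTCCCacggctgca
Rps27l (chr9:66946026-66946105, plus strand): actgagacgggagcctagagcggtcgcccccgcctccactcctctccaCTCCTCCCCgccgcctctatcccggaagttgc

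In Rps6, Rps27, Rps10 and Rpl22l1 the run lay at or beside the listed start, and in Rps27l it lay before it. Rps27 and Rps10 both carry such a run and moved in opposite directions in the leukemias against wt, as given below.

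The family as a whole was highest in dHet pro-B cells, intermediate in the leukemias and lowest in wt pro-B cells. The median level over the 83 members was 7.88 and 8.03 on the wt arrays, lay between 8.35 and 8.61 on the 6 leukemia arrays and was 9.12 and 8.92 on the dHet arrays. These medians did not overlap between the 3 kinds of sample. That order depended on the normalization. After quantile normalization, which gives every array the same distribution, the medians lay between 16.39 and 16.55 on the log2 scale on all 10 arrays and the kinds of sample overlapped.

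**Figure D1:**
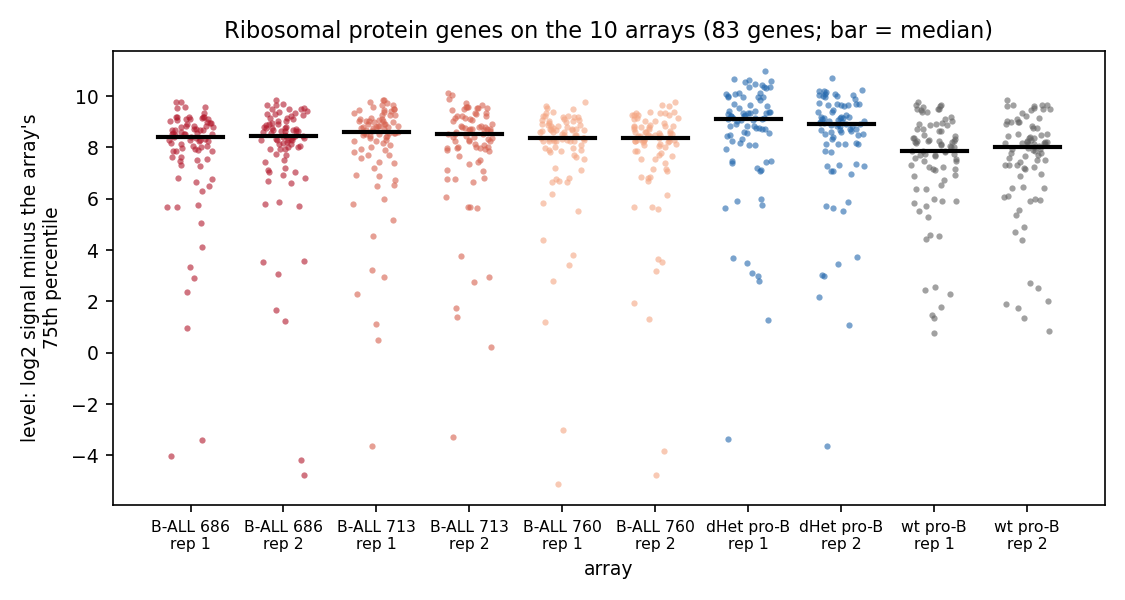
Levels of the 83 tested members (log2 signal minus the 75th percentile of the array, vertical axis) on each of the 10 arrays (horizontal axis), 1 point per gene, with the median as a bar. The medians are 7.88 and 8.03 in wt pro-B, 8.35 to 8.61 in the leukemias and 9.12 and 8.92 in dHet pro-B cells.

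The first comparison asked how the leukemias differ from normal pro-B cells. Against wt pro-B cells 46 of the 83 members rose, 5 fell and 32 did not pass, where 31.3% of all genes tested rose and 27.5% fell. The median member change was 0.49 on the log2 scale, beside 0.06 over all genes, and 14 of the 46 changed at least 2-fold. The counts rest partly on single samples: 26 rose and 1 fell without wt replicate 1, 30 rose and 2 fell without wt replicate 2, 2 fell without replicate 1 of 713, and 3 fell without mouse 686, its replicate 1 or mouse 760. All 6 leukemia arrays lay above both wt arrays for 49 members and below them for 7, against 31.9% and 27.7% of all genes. Large subunit genes rose in 30 of 43 cases (median 0.54) and small subunit genes in 11 of 30 (median 0.24), while 1 large subunit gene and 2 small subunit genes fell. Whether the subunits differ was not tested.

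Rpl14, a large subunit protein, had the largest rise. Its level was 3.35 and 3.53 in leukemia 686, 3.21 and 2.94 in 713 and 3.80 and 3.52 in 760, against 1.46 and 1.74 in wt and 2.99 and 3.05 in dHet pro-B cells. The leukemia arrays were all above the wt arrays and overlapped with the dHet arrays. The change against wt was 1.80 ± 0.21 (SE, 3 mice against 2 arrays; limma adjusted p = 0.00113).

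Rpl3, which reaches toward the peptidyl transferase centre, was nearly equal on all leukemia and dHet arrays. Its level was 7.99 and 7.95 in leukemia 686, 7.91 and 8.0 in 713, 8.31 and 8.0 in 760 and 8.09 and 8.12 in dHet, but 6.40 on each wt array. The change was 1.63 ± 0.12 against wt (limma adjusted p = 0.000376), whereas against dHet it was -0.08 ± 0.12 and did not pass (limma adjusted p = 0.594).

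Rps6, the small subunit protein phosphorylated by the S6 kinases downstream of mTOR, had a like pattern. Its level was 7.56 and 7.12 in leukemia 686, 7.21 and 7.14 in 713, 7.13 and 7.16 in 760, 7.19 and 7.06 in dHet and 5.84 and 5.90 in wt. It rose by 1.35 ± 0.13 against wt (limma adjusted p = 0.000633). A second probe of that name, dim and well above background on 7 arrays, rose too. That probe lies 18819 bases from the first on the genome, and whether both lie in the same transcript was not tested. Rpl10a rose by 1.26 ± 0.11 (limma adjusted p = 0.000557), and Rpl29, named after its values were seen, by 1.37 ± 0.12 (limma adjusted p = 0.000585).

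Of the 46 members that rose, 15 kept the call under each of 5 other scalings or background corrections, within each leukemia slide and without any single mouse or array. They were Rpl3, Rpl4, Rpl10a, Rpl14, Rpl18, Rpl24, Rpl27a, Rpl29, Rps6, Rps9, Rps10, Rps15, Rps15a, Rps27l and Rps19bp1. Of the 46, 10 changed sign under at least 1 of the 5 other scalings or corrections. The family median was less stable. The members' median change exceeded that of all genes by 0.42. A scaling that shifts whole arrays moves all genes alike, so it cannot change this excess. The excess was 0.24 after quantile normalization and 0.09 in the authors' deposited value table. The authors' deposited values gave 27 members that rose and 14 that fell. With quantile normalization the counts were 28 and 9, with scaling on detected probes alone 25 and 13, and with scaling on the array median 64 and 1.

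Among the 5 that fell, Rps27, a small subunit zinc finger protein, had 1 probe. Its level was 8.72 and 8.86 in leukemia 686, 9.09 and 9.21 in 713, 8.84 and 8.85 in 760, 10.06 and 9.73 in dHet and 9.49 and 9.50 in wt. Every leukemia array was below every pro-B array, with changes of -0.57 ± 0.17 against wt and -0.97 ± 0.17 against dHet (limma adjusted p = 0.0332 and 0.00749). Its paralog Rps27l, which p53 induces, went the other way. Its level was 6.77 and 6.59 in leukemia 686, 6.53 and 6.09 in 713, 6.65 and 6.15 in 760, 5.74 and 5.62 in dHet and 4.43 and 4.90 in wt. Rps27l rose by 1.80 ± 0.20 against wt and by 0.78 ± 0.20 against dHet (limma adjusted p = 0.00101 and 0.0234), and the difference between the paralogs was not itself tested. The fall of Rps27 against wt no longer passed without either wt array, without mouse 686 or 760, without replicate 1 of 713, with normexp, with no filter, with slide as a random block, or with array-median scaling (change -0.0036, limma adjusted p = 0.991). Of the 5 that fell, only Rps4l kept its call under all the scalings, corrections, slides and left-out samples tried.

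Rplp0, which anchors the P stalk to the large subunit and is often used as a reference gene, gave opposite calls on its probes. The brightest, near the 3′ end, had levels of 8.67 and 9.30 in leukemia 686, 8.85 and 9.53 in 713, 8.49 and 9.11 in 760, 10.06 and 9.89 in dHet and 9.65 and 9.61 in wt, a change of -0.64 ± 0.16 against wt (limma adjusted p = 0.0155). A probe farther 5′ rose by 1.21 ± 0.15 (limma adjusted p = 0.00123 over all probes), and a further one, printed in 10 spots per array, rose by 1.78 ± 0.12 (limma adjusted p = 0.000295). No direction for the gene is therefore given.

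Such disagreement was seen in several members. Of the 27 members called by their main probe that had another kept probe, 20 had another probe with the same call and 3 (Rplp0, Rpl21 and Rpl22l1) one with the opposite call. The probe stretches below, 30 of 60 bases each, show the pairs in transcript order, with the polyadenylation signal AATAAA in capitals where the stretch holds it. Positions are those of the whole probe on mm9.

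Rplp0, 5′ probe (chr5:116011423-116011482): atcatccagcaggtgtttgacaatggcagc
Rplp0, 3′ probe (chr5:116013455-116013514): atttgagaaagatggaAATAAAggcttact
Rpl22l1, 5′ probe (chr3:28704541-28704600): agagagtcggcctggcggctcgactgggac
Rpl22l1, 3′ probe (chr3:28706197-28706256): cagattagtcaagatgaagatggttcagag
Rpl21, 5′ probe (chr5:147644677-147644736): ttgtaagagcgcgcagccccgccctcctcc
Rpl21, 3′ probe (chr5:147648267-147648326): gtactacctgtcttagtgaaagagattgct

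The probe of Rpl21, a large subunit protein, that counts as brightest is itself of modest signal and rich in G and C (75%). It fell by 1.08 ± 0.24 against wt (limma adjusted p = 0.0119), while its partner rose by 1.49 ± 0.13 (limma adjusted p = 0.000527). For Rpl22l1, the paralog that can take the place of Rpl22, the bright 3′ probe rose by 0.90 ± 0.16 (limma adjusted p = 0.00452). Its 5′ probe, well above background on 7 arrays, changed by -1.41 ± 0.22 (limma adjusted p = 0.00317). Over 37 members with a pair of kept probes more than 100 bases apart on the genome, the 5′ probe had the higher change against wt in 23, and the pair had opposite signs in 9. The 13 main probes holding AATAAA had a median change against wt of 0.11, and the 68 without it 0.54, leaving out Rpl3l and Rps4l. These probes also differ in gene and base composition, and the part of probe position was not tested.

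**Figure D2:**
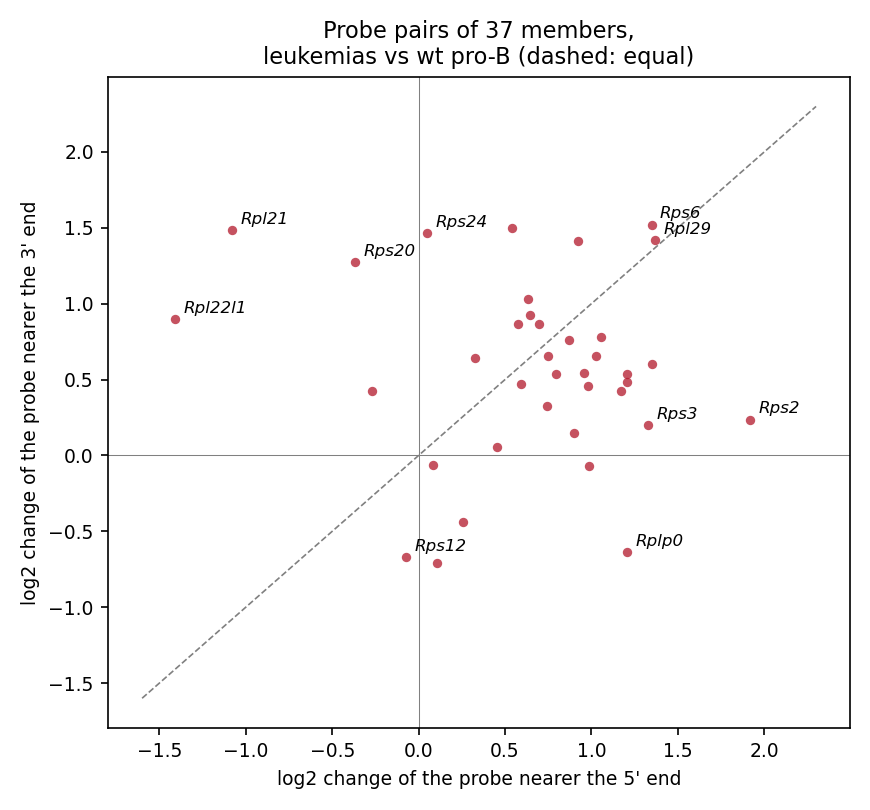
Log2 change of the leukemias against wt pro-B cells at the probe nearer the 5′ end (horizontal axis) and nearer the 3′ end (vertical axis) for 37 members, 1 point per gene, with equality dashed. Rplp0 lies at 1.21 and -0.64, Rpl21 at -1.08 and 1.49, and Rps6 near the line at 1.35 and 1.52. The Rps6 probes lie 18819 bases apart on the genome.

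The 2 slides of leukemia arrays gave different values for the same probes, alike in all 3 mice. Slide 2 was higher than slide 1 in all 3 mice for 33 members and lower in all 3 for 35, with mean differences over the 3 mice between -1.22 and 1.15. Rps10, which binds at the small subunit head, was at 9.1, 8.55 and 8.36 on slide 1 and at 7.43, 7.53 and 7.39 on slide 2, against 6.53 and 6.41 in wt. Its rise against wt was 2.20 ± 0.24 with slide 1 alone and 0.98 ± 0.12 with slide 2 alone (limma adjusted p = 0.0011 and 0.00163), both past the threshold. Rps27a, made as a fusion with ubiquitin, was at 6.64, 6.73 and 6.76 on slide 1 and at 7.93, 7.97 and 7.66 on slide 2, between which the wt arrays lay at 7.32 and 7.44. Its change against wt was -0.67 ± 0.15 with slide 1 alone (limma adjusted p = 0.0131) and 0.48 ± 0.17 with slide 2 alone (limma adjusted p = 0.0555). Across 81 members the changes from the 2 slides correlated at r = 0.834, a description over genes that share the mice and the wt arrays. Over the same members the changes also correlated with the slide 2 minus slide 1 difference. Here r was -0.656 against wt and -0.685 against dHet, and -0.217 for dHet against wt. The part of slide in the changes was not tested. With slide 1 alone 46 members rose and 8 fell, and with slide 2 alone 48 and 3.

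**Figure D3:**
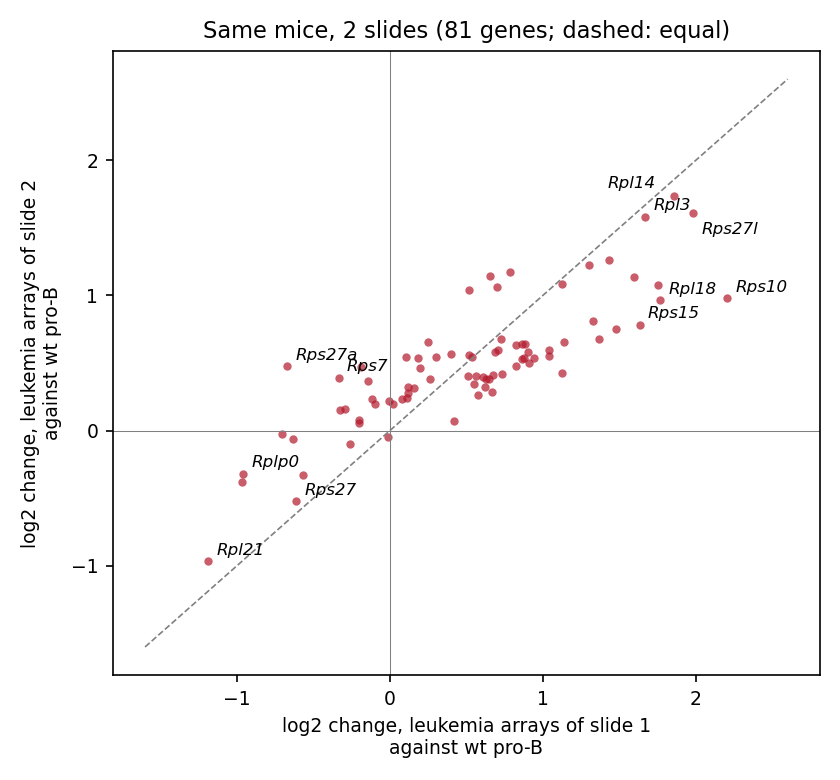
Log2 change of the leukemias against wt pro-B cells from the arrays of slide 1 (horizontal axis) and slide 2 (vertical axis), 1 point for each of 81 members, with equality dashed. Rps10 moves from 2.20 to 0.98 and Rps27a from -0.67 to 0.48, while Rpl14 and Rpl3 stay near the line.

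The second comparison set the leukemias against non-leukemic pro-B cells that share their Ebf1 and Pax5 alleles. Only 3 members rose, 56 fell and 24 did not pass, where 21.7% of all genes rose and 24.4% fell. The median member change was -0.53, beside -0.06 over all genes. Of the 9 B lineage markers 7 fell too and 0 rose, and the part of B cell content in the fall was not tested. All leukemia arrays lay below both dHet arrays for 57 members and above them for 3, against 26.1% and 24% of all genes. By their main probes the 3 P stalk genes were all called lower, as were 29 of 43 large and 22 of 30 small subunit genes. The 5′ probe of Rplp0 was at -0.18. Its call was lost with the mean of its probes (-0.34, limma adjusted p = 0.0781) and with quantile normalization (-0.30, limma adjusted p = 0.0974). The 3 that rose were no core ribosomal proteins. Rps19bp1 rose by 0.95 ± 0.16, Rpl7l1, a nucleolar relative of Rpl7, by 0.95 ± 0.16, and Rps27l by 0.78 ± 0.20 (limma adjusted p = 0.00581, 0.00596 and 0.0234). The second probes of Rps19bp1 and Rpl7l1 rose as well. Their calls were lost without dHet replicate 2 (limma adjusted p = 0.0511 and 0.054). That of Rps27l was lost without either dHet array (limma adjusted p = 0.0966 and 0.13), without mouse 686, without replicate 1 of 713 or of 760, on slide 2 alone, with normexp, with no filter, and with scan day or slide as a block.

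Rps26, which contacts mRNA near the exit site and is mutated in some Diamond-Blackfan anemia families, and Rpl39, which lines the peptide exit tunnel, kept their fall under all 5 other scalings or corrections, both slides and every left-out sample. They were the only members of the 56 that did. Rps26 had levels of 8.53 and 8.38 in leukemia 686, 8.75 and 8.25 in 713, 8.67 and 8.29 in 760, 9.53 and 9.27 in dHet and 8.26 and 8.21 in wt. It fell by 0.92 ± 0.13 against dHet (limma adjusted p = 0.00351). Rpl39 had levels of 7.63 and 8.46 in leukemia 686, 7.81 and 8.51 in 713, 7.88 and 8.35 in 760, 9.21 and 8.92 in dHet and 7.88 and 8.05 in wt. It fell by 0.96 ± 0.14 (limma adjusted p = 0.00431). For both genes every leukemia array lay below the dHet arrays and overlapped with wt.

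The largest falls beside Rpl3l, described below, were Rpl21 (-1.27 ± 0.24), Rps12 (-1.20 ± 0.21), Rpl37a (-1.17 ± 0.17) and Rps20 (-1.07 ± 0.19), with limma adjusted p between 0.0039 and 0.00921. The other probe of Rpl21 was at 0.18 ± 0.13 and did not pass, so its fall rests on 1 probe. A second probe of Rps12, of much lower signal, rose by 1.34 ± 0.27, and one of Rps20 by 1.58 ± 0.26 (limma adjusted p = 0.011 and 0.0052). Of 37 members called by their main probe with another kept probe, 8 had another with the same call and 10 one with the opposite call (Rpl7a, Rpl11, Rpl27, Rps4x, Rps12, Rps13, Rps18, Rps20, Rps24 and Rps28), for which the main probe's fall is not given as the direction of the gene. The main probes of Rpl5 (-0.52 ± 0.14) and Rpl11 (-0.69 ± 0.16), the Mdm2-binding pair, were called lower against dHet (limma adjusted p = 0.0246 and 0.0182). With the mean of their probes the changes were 0.14 and 0.18, and neither passed. Against wt only Rpl5 passed (0.54 ± 0.14, limma adjusted p = 0.0169), while Rpl11 was at 0.11 ± 0.16. The second probe of Rpl5 was at 0.81 ± 0.28 against dHet (limma adjusted p = 0.0577), and the call of its main probe was lost without either dHet array (limma adjusted p = 0.173 and 0.0643). The second probe of Rpl11, also of low signal, was called higher against dHet (1.04 ± 0.12, limma adjusted p = 0.0018).

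The direction of this family median, though not its size, was kept under every scaling tried, between -0.66 and -0.05. Relative to the median of all genes it was -0.47 with the 75th percentile but 0.03 after quantile normalization, where the sign turned. Of the 56 members that fell, 20 changed sign under at least 1 of the 5 other scalings or corrections, and 6 kept the call under all 5. With quantile normalization 7 members rose and 13 fell, and from the authors' deposited values 8 rose and 28 fell. Without dHet replicate 1 only 6 members fell. Without dHet replicate 2, 29 fell and 0 rose, so the count rests on the dHet arrays. With the 3 slides as a random block 21 fell and 0 rose.

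Between dHet and wt pro-B cells, 63 members rose in dHet, 1 fell (Rps4l) and 19 did not pass, where 16.7% of all genes rose and 14.8% fell. The median member change was 1.00 beside 0.13 over all genes. Of the 9 B lineage markers 4 rose in dHet as well and 0 fell. Both dHet arrays lay above both wt arrays for 80 members and below for 2, against 48.6% and 35.5% of all genes. Rpl36a, an E-site protein, rose by 1.73 ± 0.24, Rpl3 by 1.71 ± 0.17, Rpl22l1 by 1.54 ± 0.29 and Rpl10a by 1.48 ± 0.16 (2 against 2 arrays; limma adjusted p = 0.00213, 0.000455, 0.00694 and 0.000746). The 5′ probe of Rpl22l1 was at -0.76, and with the mean of its probes the gene did not pass (0.39, limma adjusted p = 0.664). Of 37 members called by their main probe with another kept probe, 22 had another with the same call. In 6 another had the opposite call (Rpl7a, Rpl27, Rps13, Rps15a, Rps18 and Rps28). With normexp background correction the median was 1.02 but 0 members rose, and 1.48% of all genes were called higher. With quantile normalization 11 members rose (median 0.18), and from the authors' deposited values 15 did (median 0.20). The spread in this fit is pooled over all 5 groups, and each leukemia pair in it lies on 2 slides. Fitting only the pro-B groups gave 78 rises, scan day as a block 79 and slide as a random block 76. The count of rises was 18 without dHet replicate 1, 39 without dHet replicate 2, 19 without wt replicate 1 and 29 without wt replicate 2. Both leukemia comparisons share their leukemia arrays, and each shares a pro-B group with this one, so the 3 sets of changes are not independent.

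**Figure D4:**
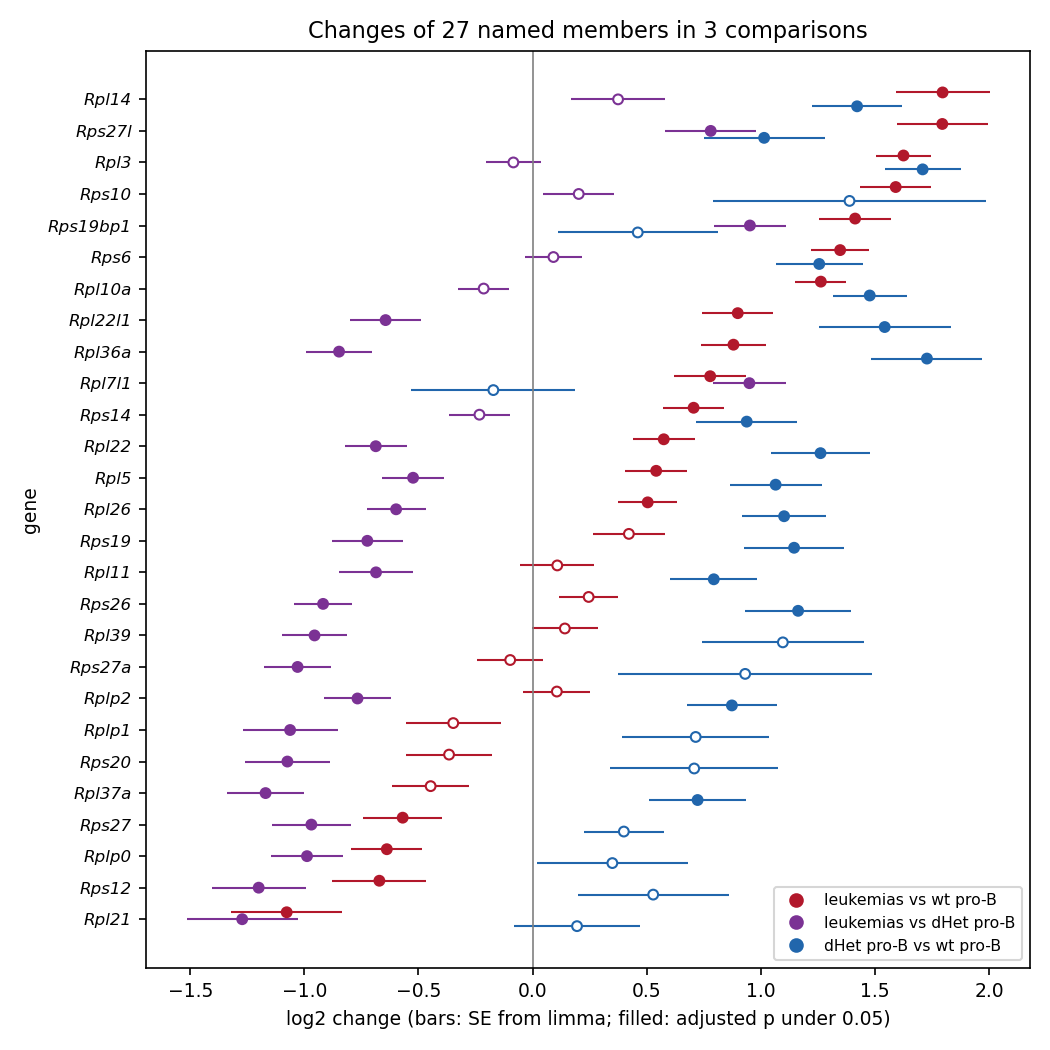
Log2 changes (horizontal axis) of 27 named members (vertical axis) in the 3 comparisons, with SE as bars and filled points where the limma adjusted p was under 0.05. Rpl14, Rps27l and Rpl3 lie at 1.63 to 1.80 against wt, and Rps27, Rplp0, Rps12 and Rpl21 lie below 0 in both leukemia comparisons.

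Genes chosen for their role are given next. Rpl22, which is dispensable for bulk translation but needed in developing T cells, was at 7.94 and 7.71 in leukemia 686, 8.08 and 7.66 in 713, 7.83 and 7.53 in 760, 8.56 and 8.40 in dHet and 7.12 and 7.31 in wt. It rose against wt (0.57 ± 0.14) and fell against dHet (-0.69 ± 0.14), with limma adjusted p = 0.0136 and 0.01. Rpl10, one of the last proteins to join the large subunit, rose by 0.45 ± 0.13 against wt and fell by 0.49 ± 0.13 against dHet (limma adjusted p = 0.0277 and 0.0267). Rpl26, which binds the p53 mRNA, rose by 0.50 ± 0.13 and fell by 0.60 ± 0.13 (limma adjusted p = 0.0183 and 0.0136). Rpl36a likewise rose by 0.88 ± 0.14 and fell by 0.85 ± 0.14, and its paralog Rpl36al rose by 0.51 ± 0.13 against wt but was at 0.02 ± 0.13 against dHet. With quantile normalization Rpl10, Rpl22 and Rpl26 passed in neither leukemia comparison, and Rpl36a and Rpl36al did not pass against wt. In the authors' deposited values Rpl10, Rpl22 and Rpl26 were at -0.22, -0.14 and -0.0035 against wt, none passing. The second probe of Rpl10 did not pass against dHet (-0.33 ± 0.12, limma adjusted p = 0.072).

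Rps14, the gene of the human 5q- syndrome, rose by 0.71 ± 0.13 against wt (limma adjusted p = 0.0064) and was at -0.23 ± 0.13 against dHet. Its change against wt was 0.054 in the authors' deposited values (limma adjusted p = 0.633). The rise also did not pass with normexp (0.50) or with scaling on detected probes (0.34), with limma adjusted p = 0.183 and 0.0616. Rps19, the first gene found mutated in Diamond-Blackfan anemia, fell by 0.72 ± 0.16 against dHet (limma adjusted p = 0.0136) and did not pass against wt at 0.42 ± 0.16. Its second probe rose against wt by 1.17 ± 0.13 (limma adjusted p = 0.000939) and was at -0.13 against dHet. The change of Rps19 against dHet was -0.0076 in the authors' deposited values (limma adjusted p = 0.95) and 0.058 with quantile normalization. With array-median scaling it did not pass either (-0.51, limma adjusted p = 0.119). Rps4x, the X-linked eS4 protein, was at -0.84 ± 0.18 against dHet on its main probe (limma adjusted p = 0.0137) and at 0.76 ± 0.25 on a dim one measured well above background on 5 arrays (limma adjusted p = 0.0475), so no direction is given. Against wt the main probe was at 0.11 ± 0.18. Rplp1 and Rplp2, the paired stalk proteins that recruit translation factors, fell by 1.06 ± 0.21 and 0.77 ± 0.15 against dHet and were at -0.35 ± 0.21 and 0.11 ± 0.15 against wt. Neither fall passed with quantile normalization (-0.24 and -0.047, limma adjusted p = 0.258 and 0.745). That of Rplp2 also did not pass in the authors' deposited values (-0.13, limma adjusted p = 0.495).

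Rps4l and Rpl3l, the tested members not well above background on all 10 arrays, had the largest differences. Rps4l was at 1.77 and 1.88 in wt pro-B cells, at -3.37 and -3.63 in dHet, at -4.04 and -4.19 in leukemia 686, -3.63 and -3.29 in 713 and -5.12 and -4.77 in 760. It was well above background on the pro-B arrays, on 1 array each of leukemias 686 and 713 and on none of 760. Against wt it was at least 31.7-fold lower in 686, 37.1-fold in 713 and 57.6-fold in 760, and 40.2-fold lower in dHet (limma adjusted p = 0.00034 for the leukemias and 1.35e-05 for dHet). Its probe lies at chr6:148304018-148304077 (mm9), is printed in 10 spots per array, and carries the stretch gggacattgcggggaaggggcgtttacgtt.

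Rpl3l, the striated muscle paralog of Rpl3, was at 3.50 and 3.47 in dHet, 0.76 and 0.84 in wt, 0.50 and 0.21 in leukemia 713, -3.01 and -3.81 in 760 and -3.38 and -4.74 in 686, where neither array was well above background. It was 6.41-fold higher in dHet than in wt (limma adjusted p = 0.00433). Against dHet it was 8.71-fold lower in 713, 119-fold lower in 760 and at least 120-fold lower in 686 (limma adjusted p = 0.0145 for the 3 leukemias). That call was lost without either dHet array (limma adjusted p = 0.0804 and 0.077), and against wt the gene did not pass (limma adjusted p = 0.0795). Its probe carries the stretch accaagaagcgagtgatcactctgagaaag.

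These 2 genes were the only members that differed between the leukemias in the 10-array fit. Leukemia 686 had 0 members higher than the other 2 leukemias and 1 lower (Rpl3l), where 1.74% of all genes were higher and 2.53% lower. Leukemia 713 had 2 higher (Rpl3l, at least 13.7-fold, and Rps4l, at least 1.09-fold, over the mean of the other 2) and 0 lower, against 8.88% and 6.48% of all genes. Leukemia 760 had 0 higher and 2 lower (both genes), against 5.34% and 6.63%. The replicate numbers of the leukemias mark the slide. With slide as a block 6 members were higher and 1 lower in 713, and the counts for 686 and 760 were as before. With quantile normalization Rps4l was called in neither 713 nor 760, and Rpl3l was no longer called in 760 (limma adjusted p = 0.0598). The call of Rpl3l in 760 was also lost without any 1 of the arrays of 713, 760 or either pro-B group (limma adjusted p = 0.0703 to 0.223), and its call in 686 without either wt array (limma adjusted p = 0.053). The call of Rps4l in 713 was lost without its replicate 2 and that in 760 without its replicate 1 (limma adjusted p = 0.0668 and 0.0557), and with normexp both differences changed sign.

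Other components of translation were counted by lists of genes. Of 4 further ribosome components, Rpsa, the laminin receptor that is part of the small subunit, rose by 1.55 ± 0.12 against wt (limma adjusted p = 0.000399), and 3 fell against dHet, led by Fau (-0.97 ± 0.20, limma adjusted p = 0.0115). Against wt 31.3% of all genes rose and 27.5% fell, against dHet 21.7% and 24.4%, and in dHet against wt 16.7% and 14.8%. Of 13 translation factor and other TOP genes, 8 rose and 0 fell against wt, 2 rose and 4 fell against dHet, and 7 rose and 0 fell in dHet against wt, so that against dHet their counts are near those shares. Eef1g and Eef1b2, subunits of the elongation factor exchange complex, rose by 1.61 ± 0.13 and 1.51 ± 0.13 against wt (limma adjusted p = 0.000437 and 0.000494). Of 12 genes of mTOR control, 6 rose and 1 fell against wt and 6 rose and 3 fell against dHet, where the falls are near the share of all genes. Larp1 rose by 1.88 ± 0.18 and 1.71 ± 0.18 (limma adjusted p = 0.000677 and 0.00154), and Tsc1, an inhibitor of mTOR complex 1, fell by 0.78 ± 0.21 and 0.93 ± 0.21 (limma adjusted p = 0.0208 and 0.0147).

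The genes that assemble ribosomes were higher in the leukemias than in both kinds of pro-B cell, unlike the ribosomal protein genes. Of 40 nucleolar biogenesis genes, 39 rose and 0 fell against wt (median 1.77), and 37 rose and 0 fell against dHet (median 2.10). In dHet against wt 3 rose and 10 fell (median -0.20). Of 18 ribosomal protein chaperone, assembly and export genes, 15 rose against wt and 14 against dHet, and none fell in either; in dHet against wt 1 rose and 3 fell. Of 77 mitochondrial ribosomal protein genes, 67 rose and 1 fell against wt (median 0.90), 47 rose and 3 fell against dHet (median 0.61), and 12 rose and 0 fell in dHet against wt. Of all genes, 31.3% rose and 27.5% fell against wt, 21.7% and 24.4% against dHet, and 16.7% and 14.8% in dHet against wt. The mitochondrial rises in dHet against wt were near that share. Against dHet the cytosolic members had a median of -0.53 with that scaling and of -0.05 after quantile normalization. Whether the lists differ from the cytosolic genes was not tested.

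**Figure D5:**
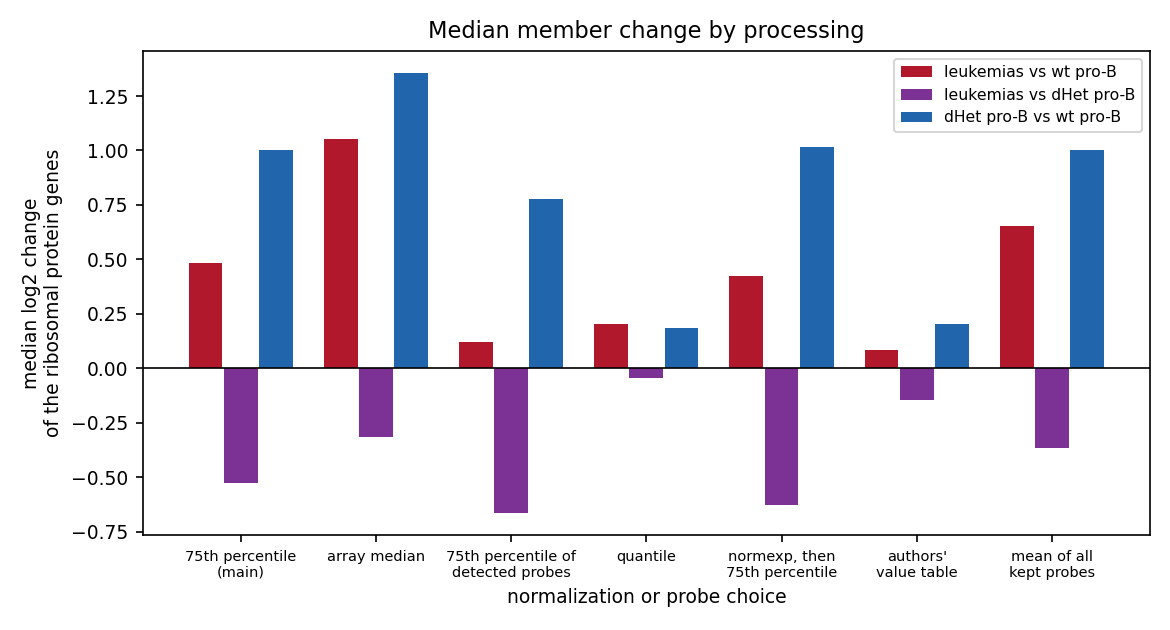
Median log2 change of the ribosomal protein genes (vertical axis, bars from 0) in the 3 comparisons under 7 ways of processing (horizontal axis). The medians of 0.49, -0.53 and 1.00 with the 75th percentile become 0.20, -0.05 and 0.18 after quantile normalization and 0.09, -0.14 and 0.20 in the authors' deposited value table.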

How the data were processed

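Agilent one-colour arrays (Cy3 label) measured total RNA of 10 samples. Per the file headers, the authors' scanner software (Feature Extraction 10.5.1.1; 9.1 per the submitters' processing notes) made the deposited intensity values, with background subtracted and no normalization between arrays. The authors' deposited value table holds log2 values whose column medians are nearly equal; its background handling, centring and any floor are unknown. From the log2 of the processed signal, the 75th percentile of its array was taken away. Control spots were left out, and spots of a probe were averaged without outliers. Where every spot of a probe was an outlier (2 to 42 probes per array), all its spots were averaged. No spot was saturated. A probe was kept where some group had it well above background on both arrays (22302 of 41174).

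The test was limma's (version 3.58.1, under R 4.3.3) over all 14438 genes, with Benjamini-Hochberg adjustment and a threshold of 0.05. Leukemia comparisons used 7 samples (3 mouse means and 4 pro-B arrays, 4 residual degrees of freedom); the others used 10 arrays in 5 groups (5 residual degrees of freedom). Other probes of members were tested in a fit over all kept probes. Where a group had arrays not well above background, the fold is a bound, taken from the lowest signal that such an array measured well above background. The number of arrays limits the precision.

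Replicate numbers of the leukemias mark the slide, per the file headers. Replicate differences correlated between leukemias at r of 0.443 to 0.633 over all genes (0.651 to 0.902 over members). With the pro-B groups r was -0.031 to 0.057 over all genes. Over members it was -0.622 to -0.357 with dHet and -0.130 to -0.051 with wt. Named were the 5 largest changes per direction and comparison, members that differed between leukemias, members with a known special role, and members not tested. The members and lists were chosen with earlier results of these data known. Alternatives covered scaling, background, filter, probe choice, blocks and left-out samples. Probe coordinates are on mm9 and promoters on GRCm38.p6.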

Additional observations from a re-analysis of the deposited data

Results flagged for a closer look

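Rpl3l and Rps4l differed between the leukemias in the fit over 10 arrays, each leukemia being set against the mean of the other 2. The 2 arrays of a leukemia share a mouse, so the p-values here do not measure the spread between mice. Rpl3l was lower by 2.54 on the log2 scale in leukemia 686 (-2.54), higher by 4.09 in 713 and lower in 760 (-1.56), with limma adjusted p of 0.0183, 0.00105 and 0.0436. Neither array of 686 measured it well above background, so these values are not exact: as bounds it was at least 3.75-fold lower in 686, 13.7-fold higher in 713 and 2.94-fold lower in 760. The call in 686 was lost without either wt array (limma adjusted p = 0.053), with no filter (0.0816) and with only the leukemias fitted (0.133). Within slide 1 the 3 differences were -2.13, 3.70 and -1.57, and within slide 2 they were -2.94, 4.49 and -1.54. Rps4l was higher in 713 (1.07) and lower in 760 (-1.16), with limma adjusted p of 0.0084 and 0.00742. Of the 6 leukemia arrays, 2 measured it well above background, and as a bound leukemia 713 was at least 1.47-fold above 760. With normexp background correction both Rps4l differences changed sign, to -0.05 and 0.52, and neither passed.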

How the results depend on the processing

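Counts below are members higher and lower. Against wt (46 and 5) they were 64 and 1 with array-median scaling, 25 and 13 with scaling on detected probes, 28 and 9 with quantile normalization, 20 and 2 with normexp, 27 and 14 in the authors' deposited value table, 33 and 3 with no filter, 55 and 2 with the mean of a gene's probes, 31 and 2 with slide as a random block, 43 and 3 with arrays as replicates, 47 and 3 with the scan day blocked, and 46 and 3 when the replicate block was added, while slide 1 alone gave 46 and 8 and slide 2 alone 48 and 3 (both slide settings were chosen after seeing the data). Against dHet (3 and 56) they were 3 and 13 with array-median scaling, 7 and 13 with quantile normalization, 2 and 19 with normexp, 8 and 28 in that table, 2 and 32 with no filter, 5 and 38 with the mean of probes, 0 and 21 with the random slide block, and 6 and 43 with slide 1 alone. For dHet against wt (63 and 1) they were 11 and 1 with quantile normalization, 0 and 1 with normexp, 15 and 1 in that table, 24 and 1 with no filter, 52 and 2 with the mean of probes, and 66 and 0 with probes well above background on all arrays, which leaves out Rps4l. The replicate block gave 68 and 1 there and 3 and 48 against dHet. For dHet against wt, fitting only the pro-B groups gave 78 and 1, scan day as a block 79 and 1, and the random slide block 76 and 1.

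The median changes of 0.49, -0.53 and 1.00 became 1.05, -0.31 and 1.36 with array-median scaling, 0.12, -0.66 and 0.78 with scaling on detected probes, 0.20, -0.047 and 0.18 with quantile normalization, and 0.086, -0.14 and 0.20 in that table; the mean of probes gave 0.65 and -0.37 in the leukemia comparisons. The median over all genes moved with them, between -0.30 and 0.63 against wt, between -0.20 and 0.15 against dHet and between -0.10 and 0.48 for dHet against wt.

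Between leukemias the counts were 0 and 1 for 686, 2 and 0 for 713 and 0 and 2 for 760. With the all-array filter and with normexp all 6 were 0, with Rpl3l and Rps4l left out by the filter. No filter gave 1 higher in 713 and 0 in the others, as did fitting only the leukemias. Quantile normalization gave 1 higher in 713 and 0 lower in 760, the array median 1 lower in 760, and detected-probe scaling 1 lower in 713. The random slide block gave 1 lower in 713, and scan day as a block, like the fixed slide block added after seeing the data, 6 higher and 1 lower. The authors' table gave 1 higher and 2 lower in 713 and 2 higher and 1 lower in 760. The replicate block changed no count between leukemias.

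Leaving out 1 sample gave 26 to 48 higher and 1 to 7 lower against wt (median 0.45 to 0.54), 0 to 4 and 6 to 61 against dHet (median -0.62 to -0.45), and 18 to 67 higher and 1 lower for dHet against wt (median 0.92 to 1.11). Between leukemias it gave 0 to 2 lower in 686, 1 to 3 higher in 713, and 0 to 1 higher and 0 to 2 lower in 760.

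Under the 5 other scalings or corrections, 10 of the 46 rises against wt, 20 of the 56 falls against dHet and 12 of the 63 rises in dHet against wt changed sign at least once. With the mean of probes as a further setting these were 11, 25 and 15. Among members named in the text, signs turned with the mean of probes for Rpl21 (0.20), Rplp0 (0.78) and Rpl22l1 (-0.25) against wt, for Rps12 (0.070), Rps20 (0.25), Rpl11 (0.18) and Rpl5 (0.14) against dHet, and for Rpl11 (-0.48) and Rps4x (-0.039) in dHet against wt. They turned in the authors' table against wt for Rpl10 (-0.22), Rpl22 (-0.14), Rpl26 (-0.0035) and Rpl5 (-0.059). With quantile normalization they turned for Rpl10 against wt (-0.02), for Rpl5 and Rps19 against dHet (0.058 each) and for Rpl11 in dHet against wt (-0.084), and with normexp for Rps4l in 713 (-0.054) and 760 (0.52). Among these only Rplp0 then passed the test. The cause was not tested.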
